A study of Mus musculus with 18 samples.

Results

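The genes described here are 10 transcription factors that divide the embryonic forebrain into regions: Emx1, Emx2, Otx1, Otx2, Pax6, Gsx2, Nkx2-1, Six3, Zic1 and Zic4. They were chosen by symbol and not by a rule on their values, although earlier results of these data were known. Each matched 1 of the 55335 features in the count matrices. RNA was measured in nuclei from the forebrain of mouse embryos at E14, by a single-nucleus method in which fixed nuclei collect combinations of barcodes over successive rounds of splitting and pooling. The study compared WT, Het and KO embryos of the MYT1L S710fsX line to ask how loss of MYT1L, a zinc finger transcription factor of postmitotic neurons, alters forebrain development. Each genotype had 3 animals and each animal was measured in 2 runs, which makes 18 libraries from 9 animals.

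The line carries a germline frameshift in Myt1l on a C57BL/6 background, so every cell of a Het or KO embryo carries the mutant allele. WT embryos have no mutant allele, Het embryos carry it in heterozygous and KO embryos in homozygous form. Embryos came from crosses between Het parents, and no group received a treatment. Myt1l, the targeted gene, was at 1234, 1256 and 1256 CPM (counts per 1000000 counts) in all nuclei of WT 1 to 3, at 1261, 1373 and 1429 CPM in Het 1 to 3, and at 1582, 1443 and 1474 CPM in KO 1 to 3. The values of the 3 genotypes did not overlap and lay lowest in WT and highest in KO, with a log2 fold change of 0.28 for KO against WT (SE 0.06, unadjusted p = 0.000982) that edgeR did not call (adjusted p = 0.707).

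The vertebrate forebrain is patterned before its neurons are made. The dorsal part, the pallium, forms the cortex and hippocampus and expresses Emx1, Emx2 and Pax6 in its radial glia, the stem cells that line the ventricle. The ventral part, the subpallium, holds the ganglionic eminences, where Gsx2 marks the lateral and Nkx2-1 the medial eminence. Otx2, Zic1 and Zic4 mark the midline, including the septum, the cortical hem and the choroid plexus, and Six3 acts in the early anterior forebrain and later in striatal development. Neighbouring factors repress each other, Pax6 against Gsx2 for example, and this sharpens the borders between regions.

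After filtering, 195566 nuclei were kept, with 43213238 to 73957342 counts per animal. Clusters were built without the 10 genes and 4 of their antisense transcripts and were named, as "-like" classes, from markers that do not include them. Of 41 clusters 32 took a name, in 16 classes, and 29577 nuclei in 9 clusters stayed unnamed. These class names are a reconstruction and can differ from the published ones. Diencephalic neuron-like nuclei came almost wholly from Het 1, which held 757 of 758, and the unnamed cluster 36 likewise, with 443 of 468 nuclei. The separate genotype tag of the labels reads WT for all 9 libraries of run 1 and conflicts with their titles, from which the groups were taken. The labels describe mixed sexes in each genotype, whereas Xist exceeded the Y-linked Ddx3y in 1 animal, WT 3, in both runs and was below it in the other 8. Between 0 and 194 barcodes were shared by any pair of libraries, with no more between the runs of an animal (0 to 74) than between libraries of different animals in the same run (0 to 137).

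The promoters of the dorsal factor Pax6, the lateral factor Gsx2 and the medial factor Nkx2-1 are shown because these factors define the regions on which the results turn. The sequences are the 250 bases before a transcription start of RefSeq on GRCm38.p6, and none of these windows overlaps an annotated exon. Capitals mark TAAT or its reverse complement ATTA, the core bound by many homeodomain proteins, a class to which the products of 8 of these genes belong (all but Zic1 and Zic4). The Pax6 window lies at chr2:105668646-105668895 on the + strand, the Gsx2 window at chr5:75075351-75075600 on the + strand and the Nkx2-1 window at chr12:56536909-56537158 on the - strand.
Pax6: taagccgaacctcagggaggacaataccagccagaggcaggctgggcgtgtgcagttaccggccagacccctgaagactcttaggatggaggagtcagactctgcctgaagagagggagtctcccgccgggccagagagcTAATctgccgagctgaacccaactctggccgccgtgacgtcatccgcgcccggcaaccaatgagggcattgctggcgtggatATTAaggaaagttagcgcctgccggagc
Gsx2: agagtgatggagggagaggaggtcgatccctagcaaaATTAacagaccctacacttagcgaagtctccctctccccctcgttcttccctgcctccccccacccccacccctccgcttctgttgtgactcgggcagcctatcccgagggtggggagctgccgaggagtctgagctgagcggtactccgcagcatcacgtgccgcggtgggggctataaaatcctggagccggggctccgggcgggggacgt
Nkx2-1: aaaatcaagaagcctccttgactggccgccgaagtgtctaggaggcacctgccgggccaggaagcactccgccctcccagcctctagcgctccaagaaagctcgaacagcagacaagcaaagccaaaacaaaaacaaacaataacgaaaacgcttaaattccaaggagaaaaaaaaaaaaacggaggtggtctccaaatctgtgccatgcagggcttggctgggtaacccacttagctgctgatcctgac
The Pax6 window shown held 2 matches, the Gsx2 window 1 and the Nkx2-1 window 0. A match is a description of the letters only. Of 32851 promoter windows of this length, 54.9% held TAAT or ATTA, against 10 of the 13 windows that the table lists for 9 of the 10 genes. Otx1 had no entry. A second motif, AAGTTT or its reverse complement AAACTT, the core sequence bound by MYT1 family proteins, was in 2 of these 13 windows, 1 of Otx2 and the second window of Pax6 (not shown, with 2 TAAT or ATTA matches), and in 12.8% of all windows.

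All 10 genes were counted, with between 543.5 (Gsx2) and 38797 (Pax6) counts in the kept nuclei. A level is given in CPM, the gene's counts per 1000000 counts of a class in one animal, as the mean ± SD over the 9 animals. CPM does not correct for gene length, so levels are compared between classes of nuclei and not between genes. A class or unnamed cluster counts as measured in every animal where each animal gave 20 nuclei or more. Orders of levels cover only these. A class of several clusters enters an order as a single mean, so a cluster within it can lie higher. Differences between classes were not tested, because the classes were defined from the same nuclei.

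Emx1, a homeobox gene restricted to the pallium, was highest in the unnamed cluster 16, whose leading genes include Sned1, Cav1 and Wnt8b, the last a Wnt ligand of the medial pallium. This cluster detected 10 of 13 pallial radial glia and 7 of 10 intermediate progenitor markers, and stayed unnamed because a hem marker, Wnt8b, is among its leading genes and no marker of those lists is. There it reached 118 ± 11.2 CPM, with a lowest value of 107, a median of 115 and a highest of 140.4 among the 9 animals. Excitatory intermediate progenitor-like nuclei followed at 95.5 ± 4.87 CPM (88.6 to 102) and pallial radial glia-like nuclei at 69.6 ± 4.88 CPM (63.1 to 78.5). These 3 ranges did not overlap. The level was 26.4 ± 2.60 CPM in excitatory neuron-like nuclei and 4.07 ± 1.42 CPM in subpallial progenitor-like nuclei. Emx1 was thus higher in intermediate progenitor-like than in radial glia-like nuclei, with a log2 ratio of radial glia to intermediate progenitors of -0.45 ± 0.12 within an animal. Of the 24040 intermediate progenitor-like nuclei, 14592 are in cluster 2, led by genes that include Neurod1 and Unc5d. Cluster 2 detected 7 of 10 intermediate progenitor and 5 of 12 excitatory neuron markers, whereas clusters 13 and 19 detected 10 of 10 intermediate progenitor markers. The level of the class does not separate these stages.

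Emx2, its paralogue, which also acts in the hem and the hippocampus, had another order. It was highest in Cajal-Retzius-like nuclei, the early neurons of the cortical surface, at 169.9 ± 26.6 CPM (lowest 133, median 164, highest 209.9). Hem and choroid plexus-like nuclei followed at 80.2 ± 25.7 CPM, cluster 16 at 71.2 ± 5.77 CPM and pallial radial glia-like nuclei at 61.8 ± 4.79 CPM. Only the first step of this order was free of overlap between the 9 animals. Intermediate progenitor-like nuclei were at 30.7 ± 3.70 CPM and excitatory neuron-like nuclei at 6.56 ± 0.82 CPM, so Emx2 was lower at each step from radial glia to neurons.

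Cajal-Retzius-like nuclei separated the paralogues further. Against excitatory neuron-like nuclei of the same animal, their log2 ratio was 4.49 ± 0.13 for Emx2 and -1.53 ± 0.43 for Emx1. Zic1 (3.34), Zic4 (2.68), Pax6 (2.61) and Otx2 (1.80) were also higher in Cajal-Retzius-like nuclei, in 9 of 9 animals each.

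Otx1, an orthodenticle homeobox gene of the cortical ventricular zone, was highest in hem and choroid plexus-like nuclei at 76.3 ± 14.6 CPM (51.7 to 101). Pallial radial glia-like nuclei had 62.4 ± 7.32 CPM, cluster 16 had 48.8 ± 5.31 CPM and intermediate progenitor-like nuclei had 46.3 ± 5.30 CPM, each overlapping the next. Subpallial progenitor-like nuclei, at 14.3 ± 2.38 CPM, lay below all of these without overlap.

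Pax6, a paired box gene needed in cortical radial glia, was highest in pallial radial glia-like nuclei at 302 ± 15 CPM (lowest 280.1, median 301, highest 332). Of the classes and clusters measured in every animal, cluster 16 (161 ± 9.03 CPM) and inhibitory neuron-like nuclei (109 ± 11.6 CPM) came next, again without overlap. Intermediate progenitor-like nuclei had 103 ± 10.3 CPM, CGE interneuron-like nuclei 72.8 ± 13.5 CPM, indirect-pathway striatal neuron-like nuclei 68.8 ± 14 CPM and subpallial progenitor-like nuclei 52.6 ± 7.23 CPM. Excitatory neuron-like nuclei were at 6.79 CPM. The log2 ratio was 1.55 ± 0.09 from radial glia to intermediate progenitors and 3.74 from intermediate progenitors to excitatory neurons. Outside the pallial lineage Pax6 was therefore also counted in several inhibitory classes, the 3 named above with means over that of subpallial progenitor-like nuclei. Direct-pathway striatal neuron-like (12.4 CPM) and MGE interneuron-like nuclei (9.38 CPM) lay below it.

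**Figure D1:**
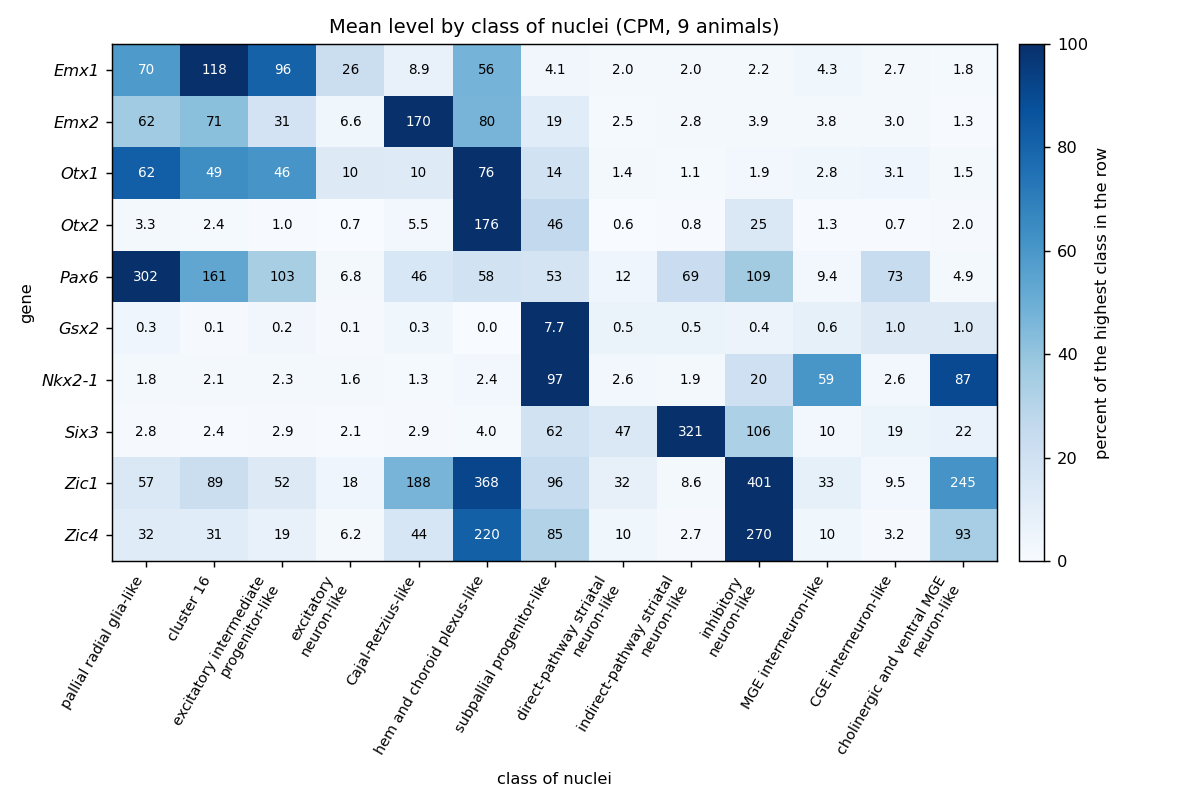
Mean level of the 10 genes (rows) in 13 classes of nuclei (columns), in CPM over 9 animals, with colour as a percent of the highest class of the row. Pax6 is highest in pallial radial glia-like nuclei (302 CPM), Six3 in indirect-pathway striatal neuron-like nuclei (321 CPM), and Otx2 in hem and choroid plexus-like nuclei (176 CPM).

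Gsx2, the homeobox gene of the lateral ganglionic eminence, was at 7.68 ± 1.72 CPM (lowest 5.00, median 7.74, highest 10.4) in subpallial progenitor-like nuclei. In no other class or unnamed cluster measured in every animal did its mean exceed 1.02 CPM. It rested on 396 counts in that class and 543.5 in all nuclei. In hem and choroid plexus-like nuclei 0 of 441 nuclei had a count, which allows a share of nuclei with a count of up to 0.680% and says nothing of nuclei that express the gene without one.

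Among named classes and unnamed clusters, Nkx2-1, which specifies the medial ganglionic eminence and the preoptic area, was highest in the unnamed cluster 23 at 161 ± 25.4 CPM (121 to 202). Single clusters within named classes lay higher, cluster 25 of the subpallial progenitor-like class at 423 CPM and cluster 11, described below. The leading genes of cluster 23 include Gbx1 and Lhx8, transcription factors of ventral neurons. Subpallial progenitor-like nuclei had 96.7 ± 16.3 CPM, cholinergic and ventral MGE neuron-like nuclei 87.0 ± 16.5 CPM and MGE interneuron-like nuclei 58.5 ± 11.4 CPM. Inhibitory neuron-like nuclei had 20.2 ± 3.82 CPM, below MGE interneuron-like nuclei without overlap, and pallial radial glia-like nuclei 1.81 CPM. MGE interneuron-like nuclei were not uniform: cluster 11, led by Lhx6, Lhx8 and the neighbouring pseudogene Sfta3-ps, had 211 CPM, the Sst cluster 24 had 25.2 CPM and cluster 5 had 4.7 CPM.

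Six3, a sine oculis homeobox gene, was highest in indirect-pathway striatal neuron-like nuclei, the Drd2 type, at 321 ± 52.1 CPM (lowest 245, median 335, highest 388). Inhibitory neuron-like nuclei had 106 ± 14.3 CPM, subpallial progenitor-like nuclei 62.3 ± 3.10 CPM and direct-pathway striatal neuron-like nuclei, the Drd1 type, 46.9 ± 4.37 CPM. No 2 neighbours among these 4 overlapped. Between both striatal classes the log2 ratio of indirect to direct was 2.74 ± 0.21 for Six3 and 2.41 ± 0.42 for Pax6, higher in 9 of 9 animals. It was -1.75 ± 0.31 for Zic1 and -1.76 ± 0.81 for Zic4, lower in 9 of 9 animals.

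Otx2, which is needed for the choroid plexus, was highest in hem and choroid plexus-like nuclei at 176 ± 66.3 CPM (lowest 84.0, median 164, highest 279). Subpallial progenitor-like nuclei followed at 46.0 ± 9.71 CPM (32.4 to 61.5) and inhibitory neuron-like nuclei at 25.2 ± 4.30 CPM (15.6 to 30.6), without overlap. Pallial radial glia-like nuclei were at 3.26 ± 1.39 CPM. The hem class is small, with 441 nuclei in all and at least 30 in each animal, and its 231 Otx2 counts limit the precision of a single animal.

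Among classes measured in every animal, Zic1 and Zic4, zinc finger genes of the midline, were both highest in inhibitory neuron-like and hem and choroid plexus-like nuclei. Zic1 was at 401 ± 60.7 CPM (313 to 478) in inhibitory neuron-like nuclei, at 368 ± 62.6 CPM (281 to 449) in hem and choroid plexus-like nuclei, at 245 ± 54.2 CPM in cholinergic and ventral MGE neuron-like nuclei and at 188 ± 16.6 CPM in Cajal-Retzius-like nuclei. Zic4 was at 270.4 ± 23.8 CPM (219.7 to 301) and 220.4 ± 78.4 CPM in the first 2 of these and at 93.3 ± 24.7 and 43.5 ± 5.59 CPM in the others. The unnamed cluster 28, led by Sim1, lay above Cajal-Retzius-like nuclei for Zic1 (213 CPM) and above the cholinergic class for Zic4 (139.8 CPM), and subpallial progenitor-like nuclei (84.6 CPM) lay above Cajal-Retzius-like nuclei for Zic4. The ranges of inhibitory neuron-like and hem and choroid plexus-like nuclei overlapped for both genes. Within the inhibitory neuron-like class the levels were concentrated in cluster 14, led by Prdm12, with 565 ± 78.8 CPM of Zic1 and 400.0 ± 35.4 CPM of Zic4. The other cluster of this class, 22, had 78.5 and 14.1 CPM.

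Neurons of the excitatory class also split on Zic1 and Zic4. Cluster 32, led by Hydin, Eps8 and Rasgrf1, had 255 ± 41.1 CPM of Zic1 and 103 ± 22.3 CPM of Zic4 in its 1351 nuclei. The other 4 excitatory neuron-like clusters had means of 6.12 to 14.7 CPM of Zic1 and 2.38 to 3.71 CPM of Zic4. In mural and fibroblast-like nuclei, pooled over animals, Zic1 was at 405 CPM and Zic4 at 162 CPM. This class is left out of the orders because WT 2 gave only 16 of its nuclei.

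The nuclei that came almost wholly from Het 1 carried a distinct set. Diencephalic neuron-like nuclei, pooled, had 344 CPM of Zic1, 193.5 CPM of Zic4 and 8.84 CPM of Pax6. Cluster 36 had 236 CPM of Pax6, 126 CPM of Six3 and 138 CPM of Zic1. These nuclei entered none of the class tests. In all nuclei, Het 1 had the highest Zic1 (83.9 CPM) and Zic4 (48.4 CPM) of the 9 animals, and such a value cannot tell a larger share of a cell type from more RNA per cell.

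The shares of nuclei with a count were read at equal depth. With each nucleus thinned to 1000 counts and 7293 shallower nuclei left out, Pax6 was counted in 25.9% of pallial radial glia-like nuclei (50.5% unthinned), Six3 in 26.4% of indirect-pathway striatal neuron-like nuclei (46.0%) and Zic1 in 29.1% of inhibitory neuron-like nuclei (49.8%). Emx2 was counted in 15.2% of Cajal-Retzius-like nuclei (39.7%), Emx1 in 8.92% of intermediate progenitor-like nuclei (19.6%), Otx2 in 13.5% of hem and choroid plexus-like nuclei (29.9%) and Nkx2-1 in 7.95% of subpallial progenitor-like nuclei (13.6%). Gsx2 reached 0.828% (1.83%). In 291 microglia and macrophage-like nuclei, which should lack these genes, the thinned shares were at most 1.01% and the unthinned at most 2.06%, both for Zic1, with a median depth of 2107 counts against 2130 in subpallial progenitor-like nuclei. Gsx2 had no count in those 291 nuclei, which allows a share with a count of up to 1.03%, so this control is too small to bound its share. In 40540 excitatory neuron-like nuclei, which are larger in number, Gsx2 was counted in 0.0062% after thinning (0.0197% unthinned, median depth 2872 counts).

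The regional split can be read within each animal as the ratio of pallial radial glia-like to subpallial progenitor-like nuclei, on log2 of CPM + 1. The classes also differ in stage, so that the ratio does not separate region from stage: both clusters of the pallial class detected 12 of the 13 radial glia markers, whereas of the 4 subpallial clusters 7 and 17 detected 9 each, 9 detected 1 and 25 detected 2, and the last pair detected 9 of 9 inhibitory neuron markers. Of the 10 genes 4 were higher in the pallial class in 9 of 9 animals: Emx1 (3.85 ± 0.43), Pax6 (2.51 ± 0.16), Otx1 (2.05 ± 0.23) and Emx2 (1.62 ± 0.17). The other 6 were lower in 9 of 9: Nkx2-1 (-5.15 ± 0.45), Six3 (-4.11 ± 0.38), Otx2 (-3.52 ± 0.38), Gsx2 (-2.69 ± 0.48, and -1.55 in run 1 alone), Zic4 (-1.33 ± 0.36) and Zic1 (-0.72 ± 0.20). Otx1 and Otx2, paralogues, thus lay on opposite sides of this ratio, although both were highest in hem and choroid plexus-like nuclei. The Otx2 excess lay mainly in clusters 7 and 17 of the subpallial class (67.5 and 81.7 CPM), against 4.5 CPM in cluster 9 and 13.4 CPM in cluster 25. Of the 12 subpallial progenitor markers, which include cell cycle genes, clusters 7 and 17 detected only 5 and 6. Clusters 9 and 25 detected 7 and 8. The regional name of clusters 7 and 17 is therefore uncertain, and so is the region of the Otx2, Zic1 and Zic4 excess. Zic1 and Zic4 were the least divided, with 57.2 ± 12.1 and 32.4 ± 9.46 CPM in pallial radial glia-like nuclei against 96.4 ± 26.7 and 84.6 ± 31.6 CPM in subpallial progenitor-like nuclei. The subpallial excess of both lay mainly in clusters 7 and 17 of the 4 described next. Zic1 in cluster 9 was at 60.6 CPM, while Zic4 in clusters 9 and 25 (19.99 and 5.8 CPM) and Zic1 in cluster 25 (35.5 CPM) lay below their means in pallial radial glia-like nuclei.

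**Figure D2:**
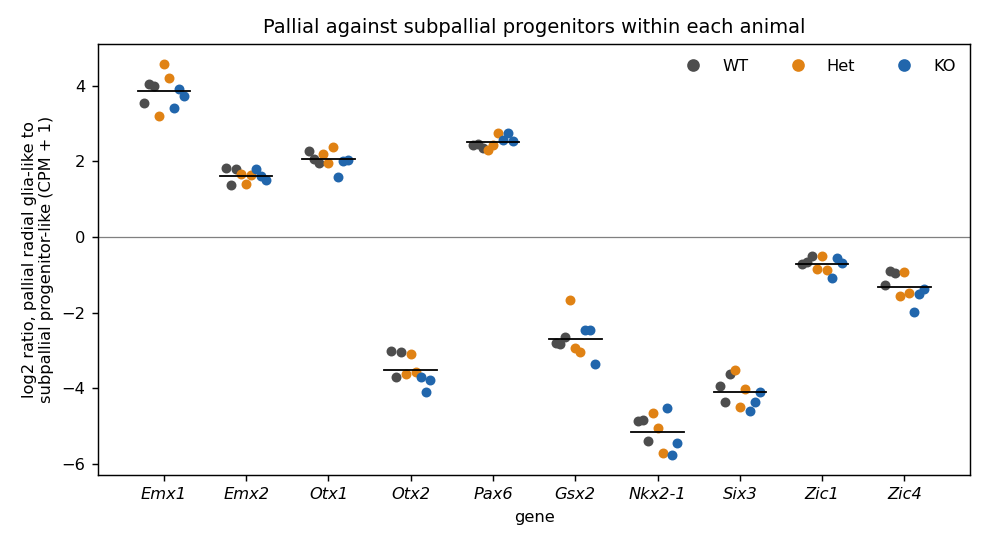
Log2 ratio of the level in pallial radial glia-like nuclei to that in subpallial progenitor-like nuclei (vertical axis, CPM + 1) for each gene (horizontal axis), with 1 point for each of the 9 animals and a line at the mean. All animals lie above 0 for Emx1, Emx2, Otx1 and Pax6 and below 0 for the other 6 genes, and WT, Het and KO points intermingle.

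Subpallial progenitor-like nuclei fell into 4 clusters, and the 10 genes, which played no part in building them, differed among these. Unlike the 4 antisense transcripts, the Nkx2-1 neighbours Sfta3-ps, Gm26973 and Gm47720 and the Zic4 neighbour Gm29478 were not left out of the clustering. The first 3 are leading genes of cluster 25 and the last is one of clusters 7 and 17. Cluster 25 (2642 nuclei) held Nkx2-1 at 423 ± 39.5 CPM (362 to 500.1), against 79.6 ± 19.7 in cluster 7, 44.5 ± 15.7 in cluster 17 and 17.2 ± 7.4 in cluster 9. It had the lowest mean of the 4 for Pax6 (6.3 ± 3.5 CPM), Six3 (20.8 CPM), Zic4 (5.8 CPM), Zic1 (35.5 CPM) and Gsx2 (3.5 CPM). Its leading genes include Lhx6, a target of Nkx2-1 in the medial eminence, and Dlx1.

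Cluster 9 (6354 nuclei), with Dlx1, Dlx6os1 and Esrrg among its leading genes, had the highest Six3 of the 4, at 102 ± 10.5 CPM. Pax6 was at 54.8 CPM there and Otx2 at 4.5 CPM. Clusters 7 (7639 nuclei) and 17 (4583 nuclei) were led by genes that include Otx2 and its overlapping transcript Otx2os1. They had Otx2 at 67.5 ± 13.5 and 81.7 ± 18.3 CPM, Zic4 at 139 ± 56.1 and 127 ± 38.0 CPM, and Pax6 at 47.6 and 79.2 CPM. Gsx2 was at 9.7 and 8.5 CPM in these, at 6.7 CPM in cluster 9 and at 3.5 CPM in cluster 25, with ranges that overlapped.

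**Figure D3:**
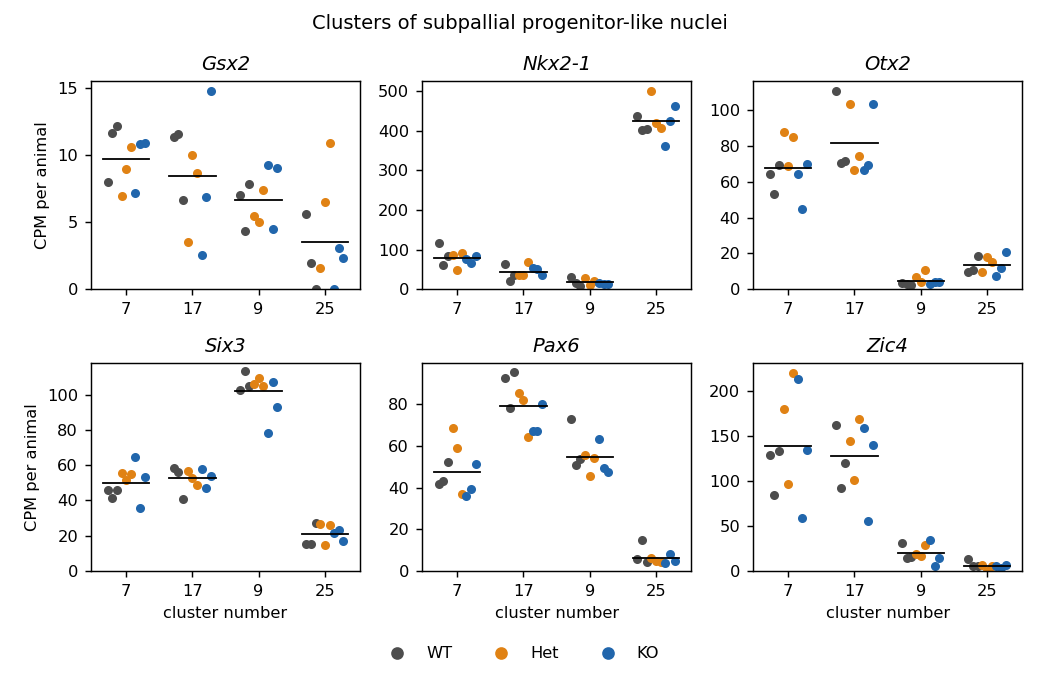
Level in CPM (vertical axes) of 6 genes in the 4 clusters of subpallial progenitor-like nuclei (horizontal axes), with 1 point per animal coloured by genotype and a line at the mean of 9 animals. Nkx2-1 is separated in cluster 25 (362 to 500.1 CPM), Six3 is highest in cluster 9, and Otx2 and Zic4 are high in clusters 7 and 17.

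Counts of 2 of the genes in the same nucleus were compared within clusters 7 and 17. In cluster 7, after thinning to 1000 counts, 0.545% of the nuclei with a Pax6 count also had an Nkx2-1 count, against 6.98% of those without Pax6 (1.30 and 12.1% unthinned). In cluster 17 the shares were 0.652 and 3.90% (1.71 and 9.01% unthinned). Nuclei with Pax6 were lower in 9 of 9 animals in each cluster and on both scales. Nuclei with Otx1 likewise had fewer Nkx2-1 counts, at 1.67 against 6.78% in cluster 7 (thinned, lower in 8 of 9 animals) and at 1.04 against 3.73% in cluster 17 (lower in 9 of 9). Pax6 and Nkx2-1 were thus rarely counted together in either cluster.

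Otx2 went with the Zic genes. In clusters 7 and 17, Zic4 was counted in 21.7% of nuclei with Otx2 and in 7.97% of those without (34.3 and 11.5% unthinned), higher in 9 of 9 animals and in each cluster alone (23.6 against 7.83% in cluster 7 and 19.6 against 8.21% in cluster 17, thinned). Zic1 was counted in 22.1 and 9.55% (39.4 and 15.2% unthinned). In pallial radial glia-like nuclei, where only 178 nuclei had an Otx2 count, Zic4 was counted in 29.7 and 2.44% (52.2 and 4.70% unthinned), again higher in 9 of 9 animals. Zic4 was also counted more often in nuclei with Zic1 than in those without, in 29.5 and 6.49% of nuclei in clusters 7 and 17 (45.5 and 7.61% unthinned).

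In the neuron cluster 14, high in both Zic genes, Otx2 and Pax6 were opposed. Pax6 was counted in 1.32% of nuclei with Otx2 and in 7.30% of those without (4.25 and 14.4% unthinned), lower in 9 of 9 animals. Six3 went with Otx2 (18.8 against 8.64% thinned, 44.3 against 18.5% unthinned, higher in 9 of 9) and against Pax6 (2.26 against 9.51% thinned, 8.41 against 22.5% unthinned, lower in 9 of 9). Nkx2-1 was counted in 0.22% of Pax6 nuclei and in 3.01% of the others (1.16 and 7.31% unthinned). Doublets that escaped removal would add nuclei with both genes, and their part in these shares was not tested.

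Genes with the most similar pattern were sought by Pearson's r of log2(CPM + 1) over the 41 clusters among 11776 genes, as a description, since clusters share libraries. For 7 of the 10 the closest was a genomic neighbour: Emx2os for Emx2 (0.95), Otx2os1 for Otx2 (0.96), Pax6os1 for Pax6 (0.87), Six3os1 for Six3 (0.95), Sfta3-ps for Nkx2-1 (0.98), and Zic1 and Zic4 for each other (0.96). For Emx1 the closest were Masp1 (0.87), E330009J07Rik and Neurog2, the proneural gene of the pallium. For Otx1 they were Celsr1 (0.93), a cadherin of planar polarity, Mid1 and Inhbb, and for Gsx2 they were Stk33 (0.81), Gpr19 and Gm14342.

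Several of these pairs overlap on the chromosome. On GRCm38, Zic1 (chr9:91358058-91365810, - strand) and Zic4 (chr9:91362413-91389348, + strand) share 3398 bases and run in opposite directions. Otx2 (chr14:48657677-48673819, -) shares 5112 bases with Otx2os1, Six3 (chr17:85613608-85629302, +) 4791 bases with Six3os1, Pax6 (chr2:105668900-105697364, +) 1431 bases with Pax6os1, Nkx2-1 (chr12:56531958-56536908, -) 1566 bases with Gm26973, and Emx2 (chr19:59458372-59465357, +) 264 bases with Emx2os. Emx1 (chr6:85187438-85204462, +), Otx1 (chr11:21994764-22002897, -) and Gsx2 (chr5:75075601-75077893, +) overlap no annotated gene. Whether strand was used in the authors' counting is not stated in the sources used here, and without strand the reads of overlapping genes cannot be told apart.

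The values also depended on the run. Nkx2-1 was at 52.6 ± 13.1 CPM in run 1 and 114 ± 21.9 CPM in run 2 in subpallial progenitor-like nuclei of the same 9 animals, a log2 ratio of 1.12 ± 0.32, higher in 9 of 9. Gsx2 was at 2.17 ± 0.90 and 9.86 ± 2.3 CPM (1.80 ± 0.28 on log2 of CPM + 1, 9 of 9). The Nkx2-1 difference was present in each of the 4 clusters of this class in 9 of 9 animals. Pax6 (48.1 and 54.5 CPM) and Six3 (54.2 and 65.5 CPM) moved less, although Six3 was higher in run 2 in 9 of 9 animals. Otx1 was also higher in run 2 in 9 of 9, with steps between 11.8 to 12.2 CPM in KO 2 and 6.76 to 17.2 CPM in Het 2.

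In all nuclei, Nkx2-1 was at 11.7 ± 2.93 CPM in run 1 and 23.5 ± 3.54 CPM in run 2 (log2 ratio 0.97 ± 0.28). Of 11766 genes at 5 CPM or more, 24.7% were higher in run 2 in all 9 animals and 16.3% lower in all 9, while 0.391% had a mean log2 ratio over 0.9. The median over these genes was 0.03. Emx2 was higher in run 2 in 9 of 9 animals (16.5 and 22.5 CPM) and Emx1 lower in 9 of 9 (35.4 and 30.4 CPM). Median depth also differed between the runs, at 2709 to 4105 counts per nucleus in the libraries of run 1 and 1863 to 2799 in those of run 2, and the part of this or of any other difference between the runs was not tested. Each run held all 9 animals but gave them unequal shares: in subpallial progenitor-like nuclei run 1 gave 22.8 to 27.9% of the counts of a WT animal, 22.1 to 39.7% of a Het animal and 21.9 to 30.9% of a KO animal, and levels of both runs together carry these weights.

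**Figure D4:**
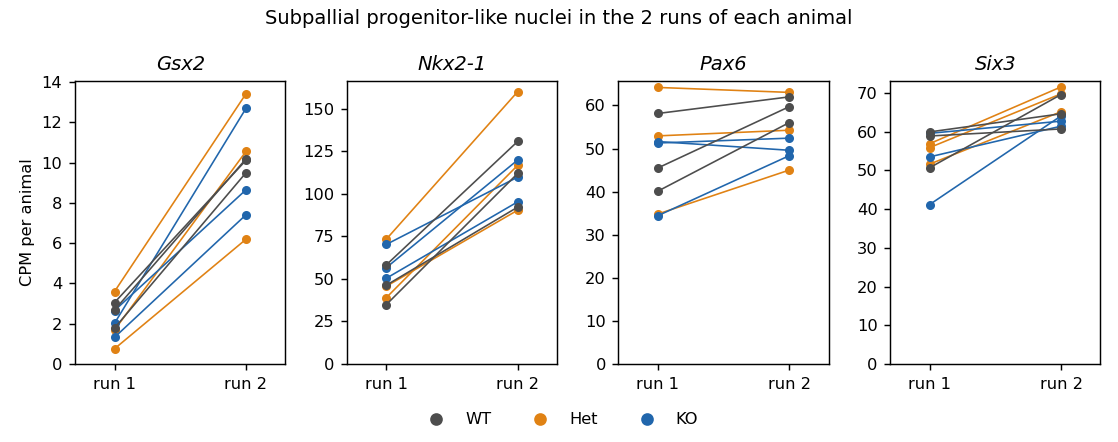
Level in CPM (vertical axes) of Gsx2, Nkx2-1, Pax6 and Six3 in subpallial progenitor-like nuclei in run 1 and run 2 (horizontal axes), with 1 line per animal coloured by genotype. Gsx2 and Nkx2-1 are higher in run 2 in 9 of 9 animals.

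Loss of MYT1L was then compared over the 3 animals of each genotype, in the 12 classes for which each animal gave 20 nuclei or more. None of the 75 gene and class pairs tested was called between KO and WT, between Het and WT or between KO and Het by edgeR's quasi-likelihood test, at an adjusted p under 0.05 and a log2 fold change over 0.2. Among all gene and class pairs the same rule called 0.161% for KO against WT, 0% for Het against WT and 0.00688% for KO against Het. At an unadjusted p under 0.05 there were 2, 1 and 7 of the 75 pairs, against 5.81, 2.86 and 3.69% of all pairs. DESeq2 called none of the 75 either, where it called 0.25, 0.000688 and 0.0344% of all pairs, and 0, 1 and 4 of the 75 had an unadjusted p under 0.05, against 2.68, 0.77 and 1.33% of all pairs. With the replicate number as a block edgeR again called none of the 75, where it called 0.918, 0.00413 and 0.136% of all pairs, and 9, 11 and 13 of the 75 had an unadjusted p under 0.05, against 9.2, 5.12 and 5.89% of all pairs. Without a filter on low counts 119 pairs were tested, of which it called 1 for KO against WT and 1 for KO against Het, both Zic4 in pallial radial glia-like nuclei, against 0.288, 0.0579 and 0.0728% of all pairs. The same fit without KO 2 called neither of these and called 1 other pair for KO against WT, Pax6 in MGE interneuron-like nuclei, against 0.233, 0.0603 and 0.0426% of all pairs. The median log2 fold change over the 75 pairs was -0.01 for KO against WT (-0.89 to 0.66), 0.04 for Het against WT (-1.10 to 0.84) and -0.09 for KO against Het (-0.92 to 0.34), where the medians of all genes of a class lay between -0.01 and 0.00.

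In all nuclei none of the 10 genes was called in any contrast and none had an unadjusted p under 0.05, against 0% of 25725 genes called. Nor was any of 174 gene and cluster pairs, where the rule called 0.287%, 0.000277% and 0.0286% of all pairs and 7, 4 and 18 of the 174 had an unadjusted p under 0.05, against 6.25, 3.32 and 4.28% of all pairs. For KO against Het the share at an unadjusted p under 0.05 exceeded that of all pairs in the edgeR, DESeq2, block and cluster fits. For the other contrasts it did so with the block but not in edgeR without it. The pairs share animals and genes and are not independent. A difference that misses the threshold does not show that the levels are equal, and the standard errors given below are those of the fit without the block.

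The levels that define the regions overlapped between genotypes. Pax6 in pallial radial glia-like nuclei was at 332, 289 and 295 CPM in WT 1 to 3, at 313, 295 and 280.1 CPM in Het 1 to 3 and at 304, 301 and 309 CPM in KO 1 to 3. Emx1 in the same class was at 70.3, 67.5 and 67.2 CPM in WT, at 68.2, 67.8 and 78.5 CPM in Het and at 63.1, 67.6 and 76.7 CPM in KO. Nkx2-1 in subpallial progenitor-like nuclei was at 113, 79.3 and 94.3 CPM in WT, at 99.5, 75.5 and 125 CPM in Het and at 81.7, 100.2 and 101 CPM in KO, and Gsx2 there at 8.34, 8.15 and 7.74, at 5.00, 7.63 and 9.53 and at 5.58, 6.80 and 10.4 CPM. Six3 in indirect-pathway striatal neuron-like nuclei was at 285, 385 and 335 CPM in WT, at 281, 336 and 273 CPM in Het and at 245, 364 and 388 CPM in KO. Each of these sets overlapped across genotypes.

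Emx1 in hem and choroid plexus-like nuclei was at 108, 69.7 and 84.8 CPM in WT 1 to 3, at 35.1, 25.1 and 48.4 CPM in Het 1 to 3 and at 37.5, 43.7 and 53.3 CPM in KO 1 to 3. All WT values lay above all Het and KO values. The log2 fold change was -0.89 (SE 0.38, unadjusted p = 0.0343, edgeR adjusted p = 0.999) for KO against WT and -1.10 (SE 0.43, unadjusted p = 0.0217, edgeR adjusted p = 0.999) for Het against WT, the latter -0.47 without upper limits on counts and genes. Both contrasts use the same WT animals, and the class gave 75 Emx1 counts in all.

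Zic1 in the same class was at 380.4, 346 and 449 CPM in WT, at 391, 410.5 and 446 CPM in Het and at 281, 294 and 317 CPM in KO. The KO values lay below all others. The log2 fold change was -0.38 (SE 0.19, unadjusted p = 0.0645) against WT and -0.48 (SE 0.19, unadjusted p = 0.0248) against Het, with edgeR adjusted p of 0.999 and 1.00. Otx2 in this class was at 223, 103 and 279 CPM in WT, at 140.2, 226 and 84.0 CPM in Het and at 231, 137 and 164 CPM in KO, with overlap.

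Cholinergic and ventral MGE neuron-like nuclei gave 2 further pairs. Zic4 was at 113, 83.0 and 141 CPM in WT, at 85.0, 92.5 and 77.8 CPM in Het and at 53.0, 88.0 and 106 CPM in KO, with a log2 fold change of -0.44 for KO against WT (SE 0.21, unadjusted p = 0.0489, edgeR adjusted p = 0.806), of -0.20 without KO 1 and of -0.26 without WT 3. Nkx2-1 was at 97.4, 88.9 and 108 CPM in WT, at 88.7, 61.7 and 71.0 CPM in Het and at 70.6, 88.0 and 109 CPM in KO, with a log2 fold change of -0.36 for Het against WT (SE 0.17, unadjusted p = 0.0512). In inhibitory neuron-like nuclei Six3 was at 98.3, 119 and 116 CPM in WT, at 87.7, 93.0 and 100.05 CPM in Het and at 92.8, 120.0 and 126 CPM in KO, with a log2 fold change of 0.29 for KO against Het (SE 0.12, unadjusted p = 0.0332). The groups overlapped for Zic4 and for Six3. Within each replicate number, Six3 was higher in KO than in Het and lower in Het than in WT. Zic4 was lower in KO 1 and KO 3 than in their same-numbered WT animals and higher in KO 2.

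Zic4 in excitatory intermediate progenitor-like nuclei was at 19.6, 15.9 and 18.7 CPM in WT, at 27.2, 23.1 and 22.1 CPM in Het and at 22.7, 9.37 and 16.1 CPM in KO. The log2 fold change was 0.45 for Het against WT (SE 0.21, unadjusted p = 0.0507) and -0.62 for KO against Het (SE 0.21, unadjusted p = 0.0107), neither called by edgeR. In run 1 alone these were -0.20 and -0.09, and the second was -0.34 without KO 2. KO 2 had the lowest value here and also in pallial radial glia-like nuclei, where Zic4 was at 38.3, 28.9 and 38.2 CPM in WT, at 35.5, 31.3 and 44.9 CPM in Het and at 29.6, 11 and 33.5 CPM in KO. In that class the log2 fold change was -0.51 for KO against WT (unadjusted p = 0.0960) and -0.13 without KO 2, and -0.61 for KO against Het (unadjusted p = 0.0521) and -0.23 without KO 2. KO 2 was also lowest of the 9 animals for Zic4 in subpallial progenitor-like nuclei (32.9 CPM, the others 55.1 to 128) and for Zic1 in both progenitor classes (30.9 and 45.7 CPM). In pallial radial glia-like nuclei the Zic4 value of replicate 2 was the lowest within WT and within Het as well. Zic4 was lower there in each KO animal than in the same-numbered WT and Het animals. Fits without KO 2 kept WT 2 and Het 2 and left out the pairing by replicate number.

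Of 66 pairs with a mean of 5 CPM or more, the 3 KO values lay below the 3 WT values in 2 (Emx1 and Zic1 in hem and choroid plexus-like nuclei) and above in 0, against 6.07 and 4.72% of all pairs. For Het against WT, 3 pairs lay above (Zic4 in intermediate progenitor-like and direct-pathway striatal neuron-like nuclei and Zic1 in indirect-pathway striatal neuron-like nuclei, background 3.69%) and 3 below (Emx1 in hem and choroid plexus-like nuclei, Nkx2-1 in cholinergic and ventral MGE neuron-like nuclei and Otx1 in Cajal-Retzius-like nuclei, background 4.83%). For KO against Het 1 pair lay below, Zic1 in hem and choroid plexus-like nuclei (background 4.23%), and 0 above (background 4.18%). These counts of 66 pairs are near or below what the shares of all pairs give.

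**Figure D5:**
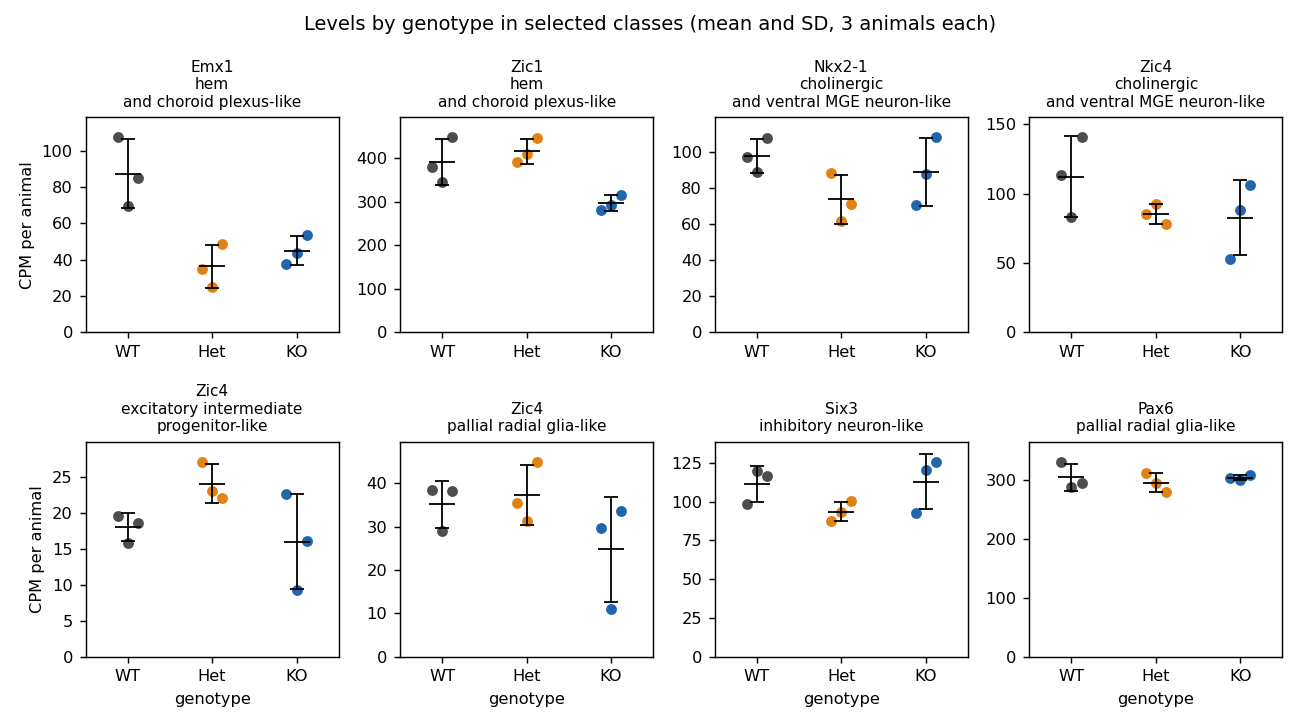
Level in CPM (vertical axes) by genotype (horizontal axes) for 8 gene and class pairs, with 1 point per animal and the mean ± SD of 3 animals. WT points lie above Het and KO for Emx1 in hem and choroid plexus-like nuclei, KO points lie lowest for Zic1 in that class, and Pax6 in pallial radial glia-like nuclei overlaps across genotypes.

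A wider list of 38 patterning genes, which holds other regional transcription factors and secreted signals, was read from the same fits. None of its 213 gene and class pairs was called in any contrast, with 8, 10 and 7 at an unadjusted p under 0.05 (5, 7 and 2 of them higher in the first group), against the shares of all pairs given above. The lowest p for KO against WT was that of Wnt8b, a Wnt ligand of the hem, in excitatory neuron-like nuclei, at 0.305, 0.210 and 0.211 CPM in WT, at 0.793, 0.586 and 0.873 CPM in Het and at 0.912, 0.407 and 0.928 CPM in KO. All WT values were lowest, over 68.95 counts in all, with a log2 fold change of 1.60 (SE 0.41, edgeR adjusted p = 0.0835) for KO against WT, and of 0.74 without upper limits on counts and genes. With the replicate number as a block this pair alone was called (log2 fold change 1.56, edgeR adjusted p = 0.0287).

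Nr2f1, an orphan nuclear receptor of the caudal cortex, was next for KO against WT, in Cajal-Retzius-like nuclei, at 113, 101 and 75.1 CPM in WT, at 120.2, 83.7 and 122 CPM in Het and at 135, 136 and 156 CPM in KO (log2 fold change 0.56, edgeR adjusted p = 0.189). For Het against WT the pairs named by the same rule were Wnt8b in excitatory neuron-like nuclei and Tcf7l2, a Wnt effector abundant in the thalamus, in inhibitory neuron-like nuclei. The latter was at 24.6, 10.6 and 11.6 CPM in Het 1 to 3, all above the 6.27 to 8.07 CPM of WT and highest in Het 1. Het 1 also held the diencephalic neuron-like nuclei, and their part in this value was not tested. For KO against Het they were Sp8, a zinc finger gene of the lateral eminence, in MGE interneuron-like nuclei (2.03 ± 0.49 in WT, 3.86 ± 0.83 in Het and 2.04 ± 0.09 CPM in KO) and Dlx1, a homeobox gene of the subpallium, in excitatory neuron-like nuclei (7.74 ± 0.07, 8.47 ± 1.99 and 6.03 ± 1.05 CPM).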

How the data were processed

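Nuclei of 18 libraries from 9 animals were measured by single-nucleus RNA sequencing. The authors aligned reads to mm10 with the kit maker's pipeline and called nuclei with it. Deposited values are estimated counts (expected counts) of unique molecules per gene and nucleus, of which part is fractional. The submitters' processing notes also name Seurat 4.3.0, DESeq2 1.38.3 and Scanpy 1.12.0. The sources used here do not give the annotation release or say whether counting used strand.

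Of 261143 barcodes, 200811 passed the study's limits of 800 to 6000 counts, 300 to 3000 genes, at most 1% mitochondrial counts and at least 0.9 log genes per log count. The 5% of all barcodes of each library with the highest doublet score were marked, and those among the passing barcodes were removed, which left 195566 nuclei. Clusters (3000 variable genes, 50 components, 20 neighbours, Leiden resolution 1, igraph 0.11.9) were built without the 10 genes and 4 of their antisense transcripts. A cluster took the list with the highest mean log2 fold of its markers, if at least 3 and at least 40% of these were detected (10 CPM or more and 1.5-fold or more above the other nuclei), the mean was above 0 (broad types), 0.5 (subtypes) or 2 (others), and no other list had more markers among the 10 leading genes; the inhibitory neuron list was used where no other list passed. The naming rule was set with the data in view.

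Counts of both runs were summed per animal and class, rounded to whole numbers and tested with edgeR 4.0.16 in R 4.3.3 (filterByExpr, TMM, quasi-likelihood F-test, two-sided, genotype-only model over 9 animals), with Benjamini-Hochberg adjustment within a class. The labels number the replicates and say nothing of separate litters, so p-values measure the spread between these animals. DESeq2 1.42.0, no filter on low counts, a replicate block, each run alone, only the 6 animals compared, other limits, other clusters and leaving out each animal were alternatives. No filter without KO 2 was added after seeing the data. The edgeR step was also run on simulated data with a fixed small spread between animals, as a check of the code. That run does not show how often changes as small as most of those given here would be called. Deviations from the group means correlated at 0.105 to 0.292 between same-numbered animals in all nuclei (9 pairs) and at -0.242 to 0.0225 between others. In all nuclei the replicate numbers thus pair the animals. Hem and choroid plexus-like nuclei showed no such pairing (-0.107 to 0.196, against -0.229 to 0.272 between others). Where the block is not named, p-values and SE come from genotype-only fits, which leave this pairing out. The study's methods describe 3 litters, and which litter gave which embryo is not stated.

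The 10 genes and all lists were chosen with earlier results of these data known. Genotype statistics are given for called pairs and, where there are none, for the 3 pairs of each contrast with the lowest unadjusted p among pairs of at least 5 CPM; Zic4 in pallial radial glia-like nuclei and the levels of the leading classes were added after their values were seen. Of the wider list the 2 pairs with the lowest unadjusted p are named. Intervals and floors cover counting error only. Positions come from GENCODE vM21 (GRCm38), which held 98.6% of the feature identifiers. Python 3.11.15, numpy 2.4.6, pandas 2.3.3 and scipy 1.17.1 were used.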

Additional observations from a re-analysis of the deposited data

How the results depend on the processing

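The count of called pairs was 0 in all 3 contrasts with DESeq2 (75 pairs tested), in run 1 alone (41 pairs, in 9 classes), in run 2 alone (71), with only the 6 animals compared (71 to 75), with doublets kept (78), without upper limits (84), with clusters built with the 10 genes (78), and without each animal in turn (0 to 0, over 76 to 79 pairs). With no filter on low counts 1 pair was called for KO against WT and 1 for KO against Het, in both cases Zic4 in pallial radial glia-like nuclei (log2 fold change -0.50, edgeR adjusted p = 0.0430, and -0.60, edgeR adjusted p = 0.00485). In the fit with no filter and without KO 2, chosen after seeing the data, this pair had -0.14 and -0.23 (edgeR adjusted p = 1 for both) and was not called, while Pax6 in MGE interneuron-like nuclei was, for KO against WT (0.86, edgeR adjusted p = 0.0390; 0.66 and 0.954 with the filter and all animals), with KO at 17.9, 7.46 and 6.79 CPM and WT at 11.7, 4.27 and 4.69 CPM. That fit also called 3 pairs of the wider list for KO against WT. It kept WT 2 and Het 2, the same-numbered animals, and left out the pairing by replicate number. With the replicate block the Zic4 pair had -0.57 (edgeR adjusted p = 0.429) and -0.66 (edgeR adjusted p = 0.377). The block called 0 of the 75 pairs in each contrast, with 9, 11 and 13 at an unadjusted p under 0.05, against 9.2, 5.12 and 5.89% of all pairs. Over all genes the block raised the called pairs from 234 to 1335 for KO against WT, from 0 to 6 for Het against WT and from 10 to 198 for KO against Het, and no filter gave 1128, 227 and 285. On the wider list, no filter called 3 of 438 pairs for KO against WT (Wnt8b in excitatory neuron-like nuclei and Gli3 and Meis2 in MGE interneuron-like nuclei), 5 for Het against WT (Tcf7l2 in 4 classes and Meis2 in MGE interneuron-like nuclei) and 3 for KO against Het (Tcf7l2), against 0.288, 0.0579 and 0.0728% of all pairs, and the replicate block called 1, 0 and 0. Without KO 1 the log2 fold changes of Gli3 and Meis2, in the fits with the filter, were -0.23 and -0.61 against 0.66 and 0.45 with all animals. Their KO and WT values overlapped. The fits without KO 1 kept WT 1, the same-numbered animal, and left out the pairing by replicate number. Gli3 was at 83.19, 19.81 and 24.35 CPM in KO 1 to 3 and at 45.76, 16.97 and 17.98 CPM in WT 1 to 3. It was thus higher in KO within each replicate number. Meis2 was higher in KO 1 and KO 3 than in their same-numbered WT animals and lower in KO 2 (158.8 against 203.9 CPM). In the 4 classes Tcf7l2 was at 23.2 to 67.01 CPM in Het 1 and at 1.13 to 8.02 CPM in Het 2 and 3. Zic4 in excitatory intermediate progenitor-like nuclei reversed for Het against WT in run 1 alone, to a log2 fold change of -0.20; the cause was not tested. The count of genes higher in pallial radial glia-like than in subpallial progenitor-like nuclei in all 9 animals was 4 under each alternative, and the log2 ratio of Gsx2 moved to -1.55 in run 1 alone and that of Otx2 to -3.91 with clusters built with the 10 genes. Leaving out an animal could not change the count of 4, because every gene lay on the same side in all 9 animals. Of the values of single genes under the alternatives, 430 kept their direction and call or moved by less than the spread between animals and 21 by more, 10 of these being shares of nuclei without thinning. Leaving out 1 of 9 animals cannot move a mean by that spread, so such levels and ratios could not count as moved. A genotype fold change that kept its sign and stayed uncalled is among the 430 whatever its size. The count of 430 is therefore no measure of robustness. Depth limits Gsx2 and the hem and choroid plexus-like class, where 75 to 486 counts a gene over 9 animals stand behind the levels of the genes named there.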
